A study of Mus musculus with 24 samples.

Results

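The transcripts described here are the 200 with the fewest ribosome footprints for their RNA in control mouse limb buds, within the limits given below. They were taken from a table of 21960 transcripts. A row was considered where the control libraries averaged an RNA level of at least 20 CPM (counts scaled to 1e+06 per library). Their footprint level had to average at least 0.5 CPM. The RNA limit was met by 7507 rows and both limits by 7380, so rows with fewer footprints still were left out. A row also had to change by less than 0.25 on the log2 scale (group mean CPM plus 0.5) with loss of an Rps6 allele in limbs with Trp53. This had to hold in RNA and in footprints, which left 5467 rows. Of these, the 200 with the lowest ratio of footprint to RNA CPM in the controls are the members, so they were chosen by measured values of 2 genotypes. Members are numbered below by that ratio, rank 1 being the lowest.

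Forelimbs of E10.5 mouse embryos, all heterozygous for a floxed Rps6 allele, were compared across 4 genotypes. The controls, Rps6 WT, Trp53 WT, are Rps6lox/+;Trp53+/+, with no Cre in the genotype. The others are Prx1Cre;Rps6lox/+;Trp53+/+ (Rps6 het, Trp53 WT), Rps6lox/+;Trp53-/- (Rps6 WT, Trp53 null) and Prx1Cre;Rps6lox/+;Trp53-/- (Rps6 het, Trp53 null). Rps6 codes for a small subunit protein of the ribosome, Trp53 for p53, and Prx1Cre drives Cre in limb bud mesenchyme, so that other cells of the limb keep both Rps6 alleles. Both Rps6 het genotypes carry Prx1Cre and neither Rps6 WT genotype does. Loss of the allele and Cre itself therefore cannot be told apart. Each genotype had 3 replicates, called pools here because each joined the limb extracts of a pair of embryos, and each was sequenced as ribosome-protected fragments (RPF, the footprints) and as RNA depleted of ribosomal RNA, which gave 24 libraries.

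Ribosome profiling digests the RNA that a ribosome does not cover and sequences the short fragments inside it. A transcript that ribosomes read often gives many footprints for its RNA, and one that is abundant but seldom read gives few. Transcripts of this second kind are known in general to include RNAs held in the nucleus, mRNAs whose upstream reading frames divert ribosomes, and RNAs with little or no coding sequence. By the name of the deposited table, footprints were counted on the coding sequence and RNA on the whole transcript. A long untranslated region therefore lowers the ratio as low translation does, and in these counts they cannot be told apart. CPM is not per length, so the order of levels or ratios between transcripts is an order of counts, not of molecules or of translation rates.

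The table names transcripts by Ensembl ID only, and 0 of the 21960 could be found in the name tables used here. Gene names, promoters and proteins are therefore not given, the lists of gene families and of cell type markers could not be applied, and neither the tissue nor the targeted genes could be checked by their own transcripts. In whole limbs, fewer cells of a type and less RNA per cell cannot be told apart. Only 4 IDs are printed, and other members are given by rank. RNA libraries held 14291854 to 29104669 counts and RPF libraries 7026056 to 16835045. A level resting on 3 counts was 0.103 to 0.210 CPM in the RNA libraries, and for RPF libraries 0.178 to 0.427 CPM.

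The members were not scarce as RNA. In the controls their mean RNA level ran from 20.1 to 3745 CPM with a median of 68.1 CPM, beside a median of 67.7 CPM for the 5267 other transcripts within the same limits. Their footprint level ran from 0.644 to 504 CPM with a median of 7.68 CPM, against 59.9 CPM for the others. By the choice itself the members lie under the cloud of other transcripts in the plot of footprints against RNA. RNA exceeded 100 CPM for 69 members and 500 CPM for 9. Footprints were under 2 CPM for 13 members and under 5 CPM for 58. Across members, log2 RNA and log2 footprint levels in the controls had Pearson's r = 0.727, and across all 5467 transcripts r = 0.787, both as descriptions over transcripts that share the same libraries.

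**Figure D1:**
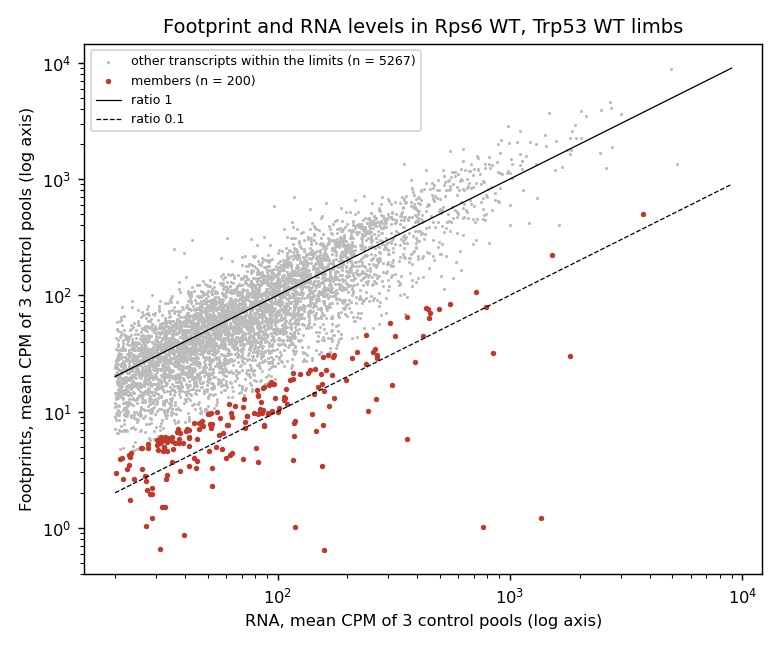
Mean footprint CPM against mean RNA CPM of the 3 control pools for the 5467 transcripts within the limits, both on log axes. Red points are the 200 members, grey points the 5267 others, and the lines mark ratios of 1 and 0.1. The members spread up to 3745 CPM of RNA, and 58 of them lie below the line at 0.1.

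The control ratio of the members spanned 214-fold, from 0.000892 to 0.191, with a median of 0.137. The other transcripts had a median of 0.921. These values chose the members and are a description. A ratio under 0.001 was found for 1 member, under 0.01 for 4, under 0.02 for 6, under 0.05 for 21 and under 0.1 for 58. At the limit the values ran on without a gap: the last 3 inside had ratios of 0.190, 0.191 and 0.191, and the first 3 outside 0.191, 0.191 and 0.192. Neighbours in the order could rarely be separated. Of the 199 neighbouring pairs, 196 had control pools that overlapped. The 3 steps without overlap were those from rank 2 to 3, from 4 to 5 and from 9 to 10, and the first of these kept its order in all 12 pools.

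The lowest ratio belonged to ENSMUST00000228850.1 (rank 1), among the 5 most abundant members as RNA. Its RNA level in the 3 control pools was 1356, 1340.5 and 1381 CPM. Its footprint level was 1.40, 1.23 and 1.01 CPM, from 18, 11 and 17 reads. The control pools lay close together in RNA, and each footprint value rested on few reads. For Rps6 het, Trp53 WT the RNA was 1271, 1069 and 1121 CPM and the footprints 1.12, 0.569 and 1.22 CPM. In Rps6 WT, Trp53 null the RNA was 1519.8, 1355 and 1567 CPM and the footprints 0.568, 0.762 and 1.46 CPM. Rps6 het, Trp53 null had 1472, 1237 and 1316 CPM of RNA and 0.749, 1.41 and 1.86 CPM of footprints. The footprint ranges of the 4 genotypes overlapped, and the transcript had the lowest ratio among the 5467 in each genotype. The ratio per pool was 0.000893 ± 0.000152 (SD, n = 3) in the controls and 0.00102 ± 0.000464 in Rps6 het, Trp53 null.

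ENSMUST00000109096.8 (rank 2) had RNA at 801, 716 and 793 CPM in the controls and footprints at 0.621, 1.01 and 1.43 CPM, from 8, 9 and 24 reads. Its mean RNA level was 751, 776 and 789 CPM in Rps6 het, Trp53 WT, in Rps6 WT, Trp53 null and in Rps6 het, Trp53 null. It ranked second in all 4 genotypes, with pool ratios of 0.00133 ± 0.000515, 0.00107 ± 0.000272, 0.00130 ± 0.000167 and 0.00143 ± 0.000210 (SD, n = 3) in the controls and then in that order. These means differed by less than the spread of the control pools. Rank 3 had RNA at 163, 155 and 156 CPM in the controls and footprints at 0.621, 0.895 and 0.416 CPM, from 8, 8 and 7 reads. Its pool ratio was 0.00408 ± 0.00157 in the controls and 0.00625 ± 0.000596 in Rps6 het, Trp53 null, with control pools at 0.00381, 0.00576 and 0.00266 and the others at 0.00680, 0.00633 and 0.00562, so that the pools overlapped.

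ENSMUST00000012152.12 (rank 4) varied most between genotypes. Its RNA was 120.4, 117 and 118 CPM in the controls, 109, 106 and 105 CPM in Rps6 WT, Trp53 null and 113, 106 and 111 CPM in Rps6 het, Trp53 null. Its pool ratio was 0.00903, 0.00575 and 0.0110 in the controls, 0.00893, 0.0128 and 0.00653 in Rps6 WT, Trp53 null, and 0.00514, 0.00380 and 0.00418 in Rps6 het, Trp53 null. The Rps6 het, Trp53 null pools lay below all pools of the other genotypes. They rest on 7, 4 and 5 footprint reads, against 12, 16 and 8 in Rps6 WT, Trp53 null. The difference between these genotypes was −1.05 ± 0.31 (SE) on the log2 scale beyond RNA and did not pass the test (edgeR adjusted p = 0.709).

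Among the other members with a low ratio, rank 6 was well covered. Its control RNA was 1787, 1799 and 1835 CPM, and its footprints were 31.5, 29.8 and 29.0 CPM from 405, 266 and 489 reads. Its pool ratio was 0.0167 ± 0.000898 (SD, n = 3) in the controls, 0.0136 ± 0.00113 in Rps6 het, Trp53 WT, 0.0130 ± 0.00234 in Rps6 WT, Trp53 null and 0.0154 ± 0.00130 in Rps6 het, Trp53 null. Pools of the controls lay above those of Rps6 WT, Trp53 null, at 0.0123, 0.0111 and 0.0157, but the gap between the closest pools was small. Ranks 7 and 8 were at the other end of coverage, with control means of 0.653 and 0.869 CPM of footprints and pool ratios of 0.0210 ± 0.0102 and 0.0220 ± 0.00993. Ranks 9 and 10 had control pool ratios of 0.0218 ± 0.00276 and 0.0326 ± 0.00232.

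**Figure D2:**
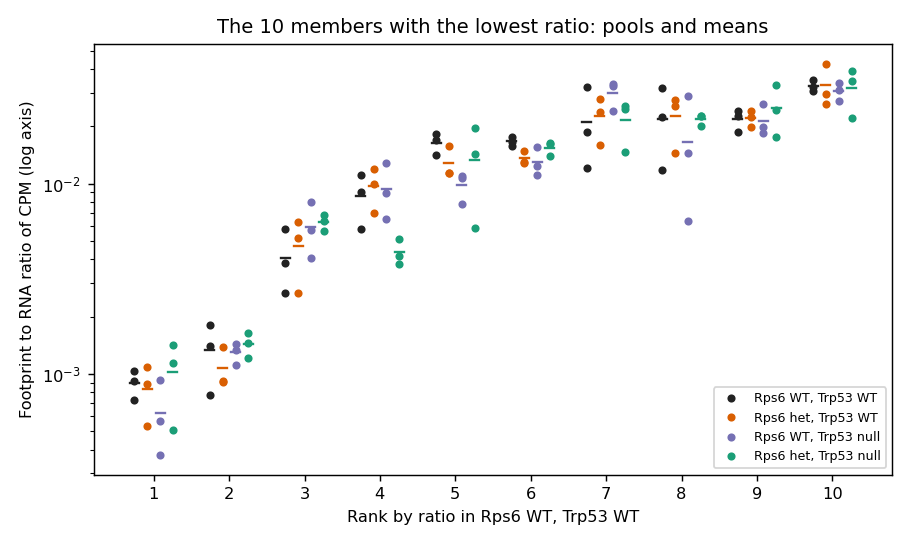
Footprint to RNA ratio of CPM (log axis) of the 10 members with the lowest control ratio. Each point is a pool, colours are the 4 genotypes and short bars are means of 3 pools. Ranks 1 and 2 stay apart from the rest in every pool, and at rank 4 the Rps6 het, Trp53 null pools lie lowest.

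Of the 5 members highest in RNA, ranks 1 and 6 are described above and ranks 98, 117 and 11 follow. ENSMUST00000082409.1 (rank 98) had RNA at 3699, 3789 and 3747 CPM in the controls and footprints at 558, 412 and 543 CPM, from 7179, 3681 and 9145 reads. In Rps6 het, Trp53 null its footprints were 598, 613 and 649 CPM, above the 541, 467 and 568 CPM of Rps6 WT, Trp53 null, while RNA overlapped at 4077, 3359.5 and 4052 against 3596, 3585 and 3720.4 CPM. This footprint difference of 0.25 ± 0.074 (SE) on the log2 scale did not pass the test (edgeR adjusted p = 0.127). Rank 117 was next in RNA after ranks 98 and 6, with 1464, 1572 and 1521 CPM in the controls and 241, 223 and 201 CPM of footprints. Rank 11 had 824, 881 and 836 CPM of RNA and 32.3, 30.3 and 32.7 CPM of footprints. The control ratio was 0.146 ± 0.0166 for rank 117 and 0.0376 ± 0.00272 for rank 11, with 0.153 ± 0.0335 and 0.0420 ± 0.00960 in Rps6 het, Trp53 null, shifts smaller than the spread of the latter pools.

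The Trp53 null pools were not used to choose the members, so the low ratio could be tested there. Footprints were compared with RNA in the 6 Trp53 null pools by edgeR's quasi-likelihood test, with 0 set by the scaling of all 24 libraries together. All 200 members were called lower in footprints than in RNA. Of all 14080 transcripts tested, 47.5% were called lower, and of the 5467 within the limits 43.6%. The log2 ratio of the members had a median of −2.66 and ran from −10.13 to −1.91, beside a median of −0.11 over all transcripts tested. For rank 1 it was −10.13 ± 0.097 (SE, edgeR adjusted p = 1.61e-31), for rank 2 −9.32 ± 0.076 and for rank 98 −2.52 ± 0.063. The ratio includes each transcript's share of coding sequence, which is the same in every pool, so a low ratio in new pools is a repeat of the measurement and not a second measure of translation.

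In the Trp53 null genotypes, whose libraries the rule did not use, most members again made up the low end. Ranked by the ratio of group means, 186 of the 200 members were among the lowest 200 of the 5467 in Rps6 WT, Trp53 null and 187 in Rps6 het, Trp53 null. In Rps6 het, Trp53 WT 188 were, but there the rule limited the change from the controls, so this count and those over all genotypes or pools are descriptions. In all 4 genotypes 178 members were, and in none of the other 3 genotypes 6 were. Single pools held 176 to 189 of the members among their lowest 200, and 142 members were there in all 12. By group means the farthest place of any member was 298, in Rps6 het, Trp53 WT, and in a single pool it was 363. In every pool each of the 200 members had a ratio below 50% of the median of the others, which 515 of the 5267 other transcripts also had. Within the members, the order of ratios in the controls was kept with Spearman's rho of 0.948 in both Rps6 het, Trp53 WT and Rps6 WT, Trp53 null and 0.941 in Rps6 het, Trp53 null, given as descriptions over 200 transcripts.

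**Figure D3:**
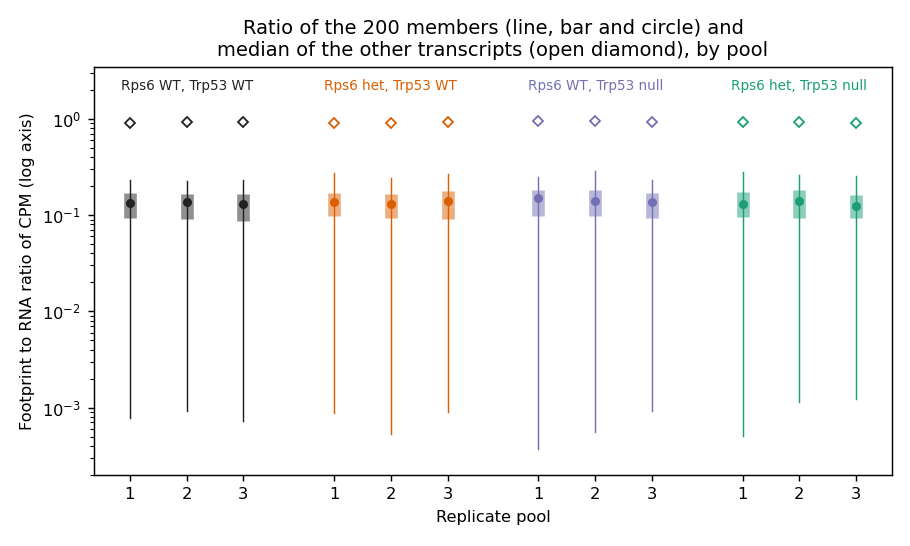
Footprint to RNA ratio of CPM (log axis) in each of the 12 pools. For the 200 members the line spans lowest to highest, the bar the middle 50% and the circle is the median; open diamonds are the median of the 5267 other transcripts. Member medians lie between 0.126 and 0.151 in all pools, and the others' medians between 0.903 and 0.960.

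The median ratio of the members was 0.137 in the controls, 0.138 in Rps6 het, Trp53 WT, 0.146 in Rps6 WT, Trp53 null and 0.134 in Rps6 het, Trp53 null. Pool medians averaged 0.134 ± 0.00268 (SD, n = 3), 0.136 ± 0.00495, 0.143 ± 0.00738 and 0.132 ± 0.00834 in the same order. The pool medians of the 2 Trp53 null genotypes overlapped, at 0.151, 0.141 and 0.137 against 0.129, 0.142 and 0.126. Together the members took 3.01% to 3.17% of RNA counts and 0.323% to 0.351% of footprint counts. The 3 Rps6 het, Trp53 WT pools were the lowest in both, at 3.05%, 3.01% and 3.01% of RNA and 0.323%, 0.323% and 0.327% of footprints. A lower control ratio is favoured by the choice itself: for 37.0% of the members the controls had the lowest ratio of the 4 genotypes, against 25.3% of the others.

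For a single member the log2 ratio of group means ranged over the 4 genotypes by a median of 0.25, beside 0.15 for the others. The rule chose the members by the control ratio. It also limited the change in Rps6 het, Trp53 WT, for members and others alike. Ranges that include these genotypes are therefore descriptions. The range was under 0.25 for 98 members, over 0.5 for 14 and over 1 for 1, which is rank 4. The narrowest ranges were 0.025 at rank 191, 0.040 at rank 144 and 0.043 at rank 123. At rank 191 the control pools had 0.206, 0.174 and 0.185, and the group means stayed between 0.188 and 0.192 in all genotypes. After rank 4, the widest were 0.75 at rank 45 and 0.74 at rank 29. Rank 45 had its lowest group ratio, 0.0710, in Rps6 het, Trp53 WT, and 0.0827 in the controls. Its highest was 0.120 in Rps6 het, Trp53 null, where 1 pool at 0.184 stood above the other 2 at 0.0871 and 0.0928. Rank 29 had pool ratios of 0.0483, 0.0469 and 0.0444 in Rps6 het, Trp53 null, all below the 0.0663, 0.0839 and 0.0815 of Rps6 WT, Trp53 null. Footprint depth moves with this range. Within 4 to 8 CPM of footprints the median range was 0.25 for 66 members and 0.22 for 40 others, and from 8 to 16 CPM it was 0.22 for 45 members and 0.19 for 305 others. Above 16 CPM it was 0.20 for 49 members and 0.14 for 4922 others. The bands leave out the members below 4 CPM, ranks 4 and 45 among them, at 1.02 and 3.72 CPM in the controls. Members were still shallower within these bands, with median footprint levels of 5.85 against 6.84 CPM, 10.2 against 12.5 CPM and 29.3 against 65.1 CPM, and the part of depth in the remaining difference was not tested.

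The difference of the members between Rps6 het, with Cre, and Rps6 WT, without it, could be tested in Trp53 null limbs. The choice used none of those libraries. No member was called in RNA, in footprints or in footprints beyond RNA (translational efficiency, TE) by edgeR's quasi-likelihood test at an adjusted p under 0.05. The calls were 0 of 200 each time, and all 200 members had passed the filter on low counts. Over all transcripts tested the share called was 0.0694% in RNA, 0.906% in footprints and 0.199% in TE, so 0 of 200 lies near the background. At an unadjusted p under 0.05 there were 27 members in RNA, 20 in footprints and 15 in TE. The shares were 13.5%, 10.0% and 7.5%, near the 11.3%, 11.95% and 5.47% of all transcripts tested. DESeq2 called 0 members in RNA, 0 in footprints and 1 in TE.

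In this comparison the median absolute log2 change of the members was 0.073 in RNA, 0.10 in footprints and 0.12 in TE. Over all transcripts tested it was 0.082, 0.076 and 0.096. Log2 fold changes ran from −0.40 to 0.22 in RNA, from −1.01 to 0.52 in footprints and from −1.05 to 0.68 in TE. Their medians were 0.048, 0.00015 and −0.019, beside −0.0050, −0.00030 and 0.0041 over all transcripts tested. The median SE of a member was 0.062 in RNA, 0.14 in footprints and 0.14 in TE. The 95% interval of the change stayed within 1 of 0 on the log2 scale for 200 members in RNA, 194 in footprints and 189 in TE. The smallest p-values, looked up after the fit, belonged to rank 158 in RNA (0.20 ± 0.057 SE, edgeR adjusted p = 0.258) and to rank 130 in footprints (−0.19 ± 0.052 SE, edgeR adjusted p = 0.0874). In TE it was rank 130 again, with −0.29 ± 0.075 (SE, edgeR adjusted p = 0.181). The 2 genotypes did not overlap over their pools for 31 members in RNA, 25 in footprints and 28 in the ratio, while 17.3%, 16.6% and 14.2% of the 5467 transcripts did the same. In the ratio, 27 of these members were lower in Rps6 het and 1 higher, beside 615 lower and 163 higher of the 5467. This lean was not tested.

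**Figure D4:**
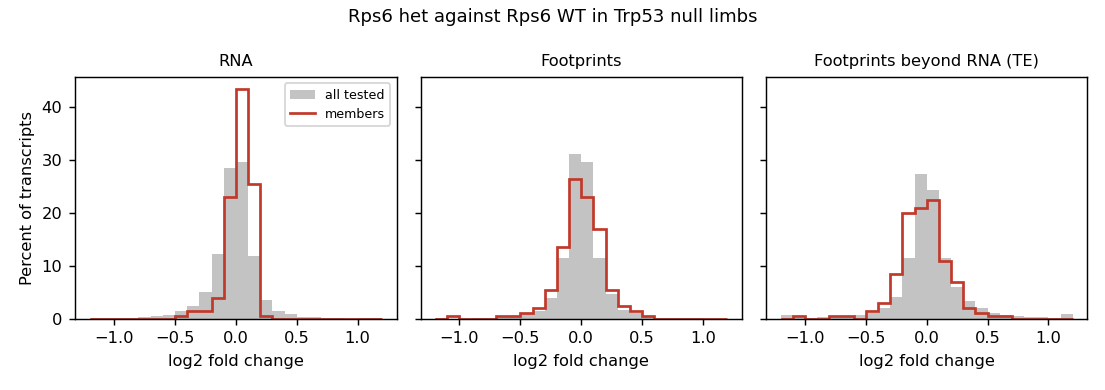
Log2 fold changes of Rps6 het against Rps6 WT in Trp53 null limbs in RNA, footprints and TE, as percent of transcripts per bin of 0.1. Grey is all transcripts tested, the red line is the 200 members, and the end bins hold all values beyond them. The members centre near 0 in all 3 panels, with the RNA changes shifted to the right by about 0.048.

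In RNA, 139 of the 200 members had a positive change, 69.5% against 48.3% of all transcripts tested. The 5467 transcripts within the limits also leaned this way. Where pools did not overlap in RNA, 701 of them were higher in Rps6 het and 247 lower, beside 28 and 3 members. The size of the members' lean moved with single libraries. The members' median RNA level was 65.6, 63.3 and 71.5 CPM in Rps6 het, Trp53 null and 59.3, 58.4 and 65.1 CPM in Rps6 WT, Trp53 null, so replicate 3 was the highest of each genotype. Without replicate 3 of Rps6 het, Trp53 null the median change was 0.011 and 10 members had an unadjusted p under 0.05. Leaving out replicates 1 or 2 of Rps6 WT, Trp53 null gave 13 and 14 such members. Without replicate 3 of Rps6 WT, Trp53 null there were 54, and without replicate 2 of Rps6 het, Trp53 null 49.

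Comparisons that use the control libraries share them with the choice of the members and are given as values only. Between Trp53 null and Trp53 WT with Rps6 intact, the members' median log2 change was −0.077 in RNA, 0.0047 in footprints and 0.086 in TE. Between Rps6 het and Rps6 WT with Trp53, where the rule limited the change, the medians were −0.066, 0.0022 and 0.038. Members called between Rps6 het and Rps6 WT with Trp53 numbered 29 in RNA, 3 in footprints and 1 in TE, where 24.8%, 24.9% and 1.17% of all transcripts were called, and nothing is read from counts that the rule limited. Between Trp53 null and Trp53 WT edgeR called 0 members in each, where 0.118%, 0.0741% and 0% of all transcripts were called, with 62, 13 and 16 at an unadjusted p under 0.05. Those are 31.0%, 6.5% and 8.0% of the members, beside 14.8%, 4.07% and 5.19% of all transcripts tested. In the difference of the Rps6 change between the Trp53 backgrounds, calls with a more positive change in Trp53 null numbered 6 in RNA, 1 in footprints and 0 in TE, where 4.48%, 3.11% and 0.071% of all transcripts were called. In RNA the control mean was the highest of the 4 genotypes for 123 members. The limit on that change also shaped the list: of 340 rows with a ratio at or under 0.191, 58.8% met it, against 74.8% of the 7040 rows with a higher ratio. Of the 140 rows it left out at or under that ratio, 77 fell and 23 rose by 0.25 or more in RNA, and 75 fell and 24 rose in footprints. Among the 1773 left out with a higher ratio, 651 fell and 461 rose in RNA, and 949 fell and 365 rose in footprints. Footprints thus fell more often than they rose in both sets.

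A small set of members stood apart by how much their RNA varied between pools of one genotype. The SD of log2 RNA within genotypes, on log2(CPM + 0.5), had a median of 0.083 for the members and 0.067 for the others. It was over 0.2 for 7 members, at ranks 5, 9, 18, 20, 23, 48 and 59, with values from 0.24 to 0.35, while the next was 0.16 at rank 6. Among the 5267 others 15 exceeded 0.2, so the share was 3.5% of members and 0.285% of others. This limit was chosen after the values were seen, and no test is given.

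The 7 shared much of their order of pools in RNA. Rank 5 had 357, 320.5 and 402 CPM in the controls and 466, 308 and 494 CPM in Rps6 het, Trp53 WT. Without Trp53 it had 591, 539 and 462 CPM where Rps6 was WT and 492, 585 and 324 CPM where it was het. Rank 9 had 158, 137 and 169.9, then 196, 136 and 183, then 234, 193 and 160.2, and last 205, 195 and 155 CPM in the same order. For all 7, replicate 2 was the lowest of Rps6 het, Trp53 WT and replicate 3 the lowest of both Trp53 null genotypes. Rank 6 went with them: its deviations from genotype means in RNA over the 12 pools correlated with those of the 7 at r = 0.82 to 0.89. This was not particular to the 7. An r over 0.8 with rank 6 was found for 9 members, or 4.52%, and for 2.79% of the others. The 9 include ranks 13 and 132, at r = 0.95 and 0.86. A larger set ran the other way, with r under −0.8 against rank 6 for 60 members, or 30.2%, and for 13.7% of the others, given as descriptions over pools that all share. In the 3 pools that were lowest for all 7, their median RNA level was 73.0%, 84.9% and 73.5% of the genotype mean. Their footprints did not share that order: replicate 2 of Rps6 het, Trp53 WT was lowest for 4 of the 7, and replicate 3 of Rps6 het, Trp53 null was lowest for 0 and highest for 5. Between its lowest and highest pool, RNA of the 7 differed 1.72-fold to 2.34-fold. By group means none of the 7 went beyond place 59 of 5467 in any genotype. Place 59 is also the control rank of the last of them, which the choice set, so this is a description. The RNA libraries of these 3 pools held 19337252, 16546627 and 29104669 counts, of which the last is the deepest of all RNA libraries, and the part of depth in the pattern was not tested.

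**Figure D5:**
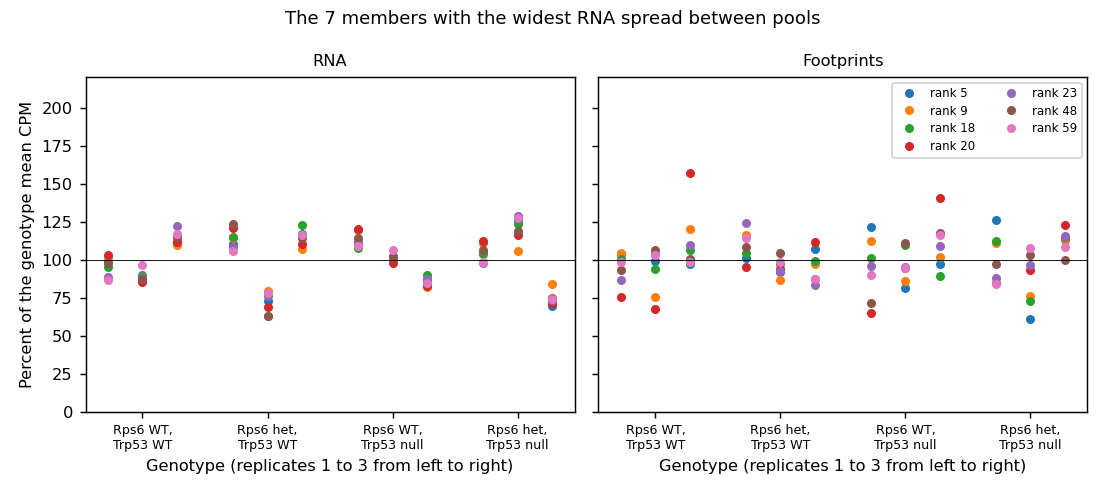
RNA (left) and footprint (right) CPM of the 7 members with the widest RNA spread, each as percent of its own genotype mean, with the 3 replicate pools of each genotype side by side. In RNA the 7 points of a pool sit together, and replicate 2 of Rps6 het, Trp53 WT and replicate 3 of both Trp53 null genotypes are low. In footprints the points of a pool are scattered.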

How the data were processed

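Whole-number read counts per transcript, not normalized, are the unit of the single table that the authors deposited for the 24 libraries. Its name gives coding sequence for footprints and total for RNA. Per the submitters' processing notes, Bowtie2 and UMI-tools were used with GRCm38 and mm10. Versions, annotation, filters and whether counts were deduplicated are not given in the sources used here. CPM was computed on library totals. The test was edgeR 4.0.16 run in R 4.3.3 (glmQLFit, glmQLFTest; filterByExpr with a minimum count of 10 and total of 15; TMM within library kind, or over all 24 libraries for footprints against RNA). The 4 genotypes shared a fit, with Benjamini-Hochberg adjustment over all transcripts tested and calls at 0.05, and SE came from the F statistic. Alternatives were DESeq2 1.42.0, its size factors, no filter, Trp53 null pools alone, a block, left-out pools and other limits for members. The block was the replicate number for RNA or footprints alone, and the pool for TE and for footprints against RNA. The reported fits had no block, so the RNA and footprint libraries of a pool were not paired in them. Scripts were tested on simulated data.

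By the labels' protocols RNA and footprints came from the same lysates, so equal numbers were taken to pair them. Their deviations from group means correlated at 0.0754 to 0.302 over 12 pools. Replicates differed by more than counting noise in all 24 pairs (chi-square per degree of freedom 1.78 to 17.1). P-values measure the spread between pools, and floors cover counting error only. The transcripts named by rule were the 10 lowest ratios, the 5 highest RNA levels, 3 on each side of the limit, the 3 widest and 3 narrowest ranges over genotypes, and called members. As no member was called for Rps6 in Trp53 null, those of smallest p were named after their values were seen, as were the 7 of wide RNA spread and those called in the difference between backgrounds. The members and lists were chosen with earlier results of these data known. The gene and marker lists could not be used, since no names were matched.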

Additional observations from a re-analysis of the deposited data

Results flagged for a closer look

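For the difference of the Rps6 change between the Trp53 backgrounds, edgeR's interaction test called 6 of the 200 members in RNA, all with a more positive change in Trp53 null, where 4.48% of all transcripts were called in that direction. They were ranks 164, 58, 129, 4, 33 and 71, with differences of 0.21 to 0.26 on the log2 scale. Leaving out single pools moved the count of calls in either direction between 1 and 24, and the 24 were 22 more positive and 2 more negative. In footprints 1 was called, where 3.11% of all transcripts were: rank 98 (ENSMUST00000082409.1), with a difference of 0.42 ± 0.11 (SE, edgeR adjusted p = 0.0152). Its footprints averaged 504 CPM in the controls, 431 in Rps6 het, Trp53 WT, 525 in Rps6 WT, Trp53 null and 620.0 in Rps6 het, Trp53 null. No member was called in that direction in footprints by DESeq2, or by edgeR without replicate 2 of Rps6 WT, Trp53 null. The same held without control replicate 3 and without replicate 3 of Rps6 het, Trp53 null, each of which left 1 call in the opposite direction. In TE 0 were called, with 13 at an unadjusted p under 0.05, which is 6.5% of the members beside 6.32% of all transcripts. Both RNA and footprint counts lie under the background shares, and the test uses the libraries that chose the members and limited their change, so nothing about the members is read from these values.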

How the results depend on the processing

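All 200 members stayed lower in footprints than in RNA in the Trp53 null pools under each alternative that kept 200 members, and 100 of 100 did with 100 members. Leaving out single pools gave 200 to 200. The median log2 ratio of all transcripts there was −0.40 with no filter, where the members' was −2.68, and −0.13 to −0.094 in the other settings, with −0.11 beside the members' −2.66 as reported. Counts of members called, in either direction, were small and moved as follows. With no filter on low counts they were 2 for Rps6 in Trp53 null in footprints, 6 and 1 for Trp53 in RNA and footprints, and 11 and 3 for the difference between backgrounds in RNA and footprints. DESeq2 gave 1 for Rps6 in Trp53 null in TE, and 11 and 0 for the difference in RNA and footprints. With the replicate number as a block there were 1 for Rps6 in Trp53 null in footprints, and 19 and 2 for the difference in RNA and footprints. Over all transcripts, calls for the difference in RNA were 2000 with this block and 1376 without it. Same-numbered pools correlated at −0.247 to 0.188 in RNA and −0.0990 to 0.0777 in footprints over 18 pairs each. The means were 0.060 and 0.0043. Whether pools of one number share a batch was not tested. The Trp53 null pools alone gave 1 in footprints, with 197 members tested. Members chosen on TMM-scaled CPM, of which 179 were the same, gave 1 for Trp53 in RNA and 15 for the difference in RNA. The cause was not tested.

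Leaving out single pools gave 0 to 1 for Rps6 in Trp53 null in footprints (1 without Rps6 het, Trp53 null replicate 3), and 0 to 2 for Trp53 in RNA (2 without replicate 2 or 3 of Rps6 het, Trp53 null). It gave 1 to 24 for the difference in RNA, lowest without control replicate 3 or Rps6 het, Trp53 WT replicate 1 and highest without Rps6 het, Trp53 null replicate 2, and 0 to 2 for the difference in footprints. With 100 members the median ratio was 0.0900, 0.0956, 0.0974 and 0.0963 in the order of the genotypes in the report. With an RNA minimum of 40 CPM it was 0.155, 0.161, 0.165 and 0.160. With a footprint minimum of 2 CPM it was 0.144 in the controls, 0.148 in Rps6 het, Trp53 WT and 0.144 in Rps6 het, Trp53 null. The sets differ: the 100 were all among the 200 members. With the RNA minimum of 40 CPM 142 of the 200 were the same, and with the footprint minimum of 2 CPM 187. Footprint depth limits single members: 4 to 21 members had under 20 footprint reads in a library.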
